A study of Arabidopsis thaliana with 18 samples.

Results

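The 3 Arabidopsis thaliana libraries titled yak1lst8-1 were compared with the 3 titled lst8-1, which makes 6 of the 18 libraries of the series. The comparison shows what differed with the yak1 mutation in plants that also carry lst8-1. Its libraries were chosen by title alone. Untreated whole plants came from in vitro culture at 20 °C with 16 h of light, where the medium held 0.3 % sucrose, and were taken at Boyes stage 1.02, when the earliest rosette leaves are visible. Polyadenylated RNA was sequenced as stranded single-end libraries. The lst8-1 plants carry the lst8-1 mutation only, and the yak1lst8-1 plants carry lst8-1 and yak1. Both are in the Col0 background, so the lst8-1 mutation is shared by both groups. Libraries of wild type Col0 and of the yak1 single mutant, also 3 each, give the levels with LST8-1 intact. The labels call the mutations gene knockouts and give neither the kind of allele nor the number of lines behind it. They give no hour of harvest. The design text speaks of 2 biological replicates where the titles number 3 libraries per genotype, so the p-values measure the spread between these libraries.

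The target of rapamycin (TOR) kinase promotes growth and protein synthesis when nutrients and energy are at hand. It works in a complex with RAPTOR, which binds substrates, and LST8, which stabilises the kinase. YAK1 is a protein kinase of the DYRK family. In yeast, Yak1 restrains growth when nutrients are short, and in Arabidopsis YAK1 is known from genetic work as a growth repressor downstream of TOR.

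The 6 libraries held 10801464 to 17281132 counts. Replicates of these genotypes differed by more than counting noise, with a chi-square per degree of freedom of 3.45 to 12.03. Levels are given in CPM, the count brought to a common library total, scaled by TMM, which corrects those totals for composition. They are not compared between genes, since they are not per length. Genes counted as called had an adjusted p under 0.05 in edgeR's quasi-likelihood test (Benjamini-Hochberg over 20619 genes). Every adjusted p in the text comes from it. Changes are log2 fold changes of yak1lst8-1 against lst8-1 with their SE. Each list of genes was chosen with earlier results of these data known, so its counts describe and test nothing. In whole plants, fewer cells of a type and less RNA per cell cannot be told apart.

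The genes that name the genotypes were examined before all others. LST8-1 (AT3G18140, chr3:6212585-6214804, TAIR10.1) stood at 2.39, 2.13 and 2.42 CPM in the lst8-1 libraries and at 1.63, 2.02 and 0.928 CPM in the yak1lst8-1 libraries, where the Col0 mean was 50.7 CPM. Both groups were therefore low in LST8-1 transcript, and their ranges did not overlap. The fall of 0.62 ± 0.19 on the log2 scale (adjusted p = 0.0225) did not keep its call in 3 alternatives. The adjusted p was 0.0667 for -0.59 when lst8-1 replicate 1 was left out, 0.265 for -0.37 when yak1lst8-1 replicate 3 was, and 0.141 for -0.61 when only these 6 libraries were fitted. YAK1 (AT5G35980, chr5:14127960-14136351) stood at 127, 126 and 131 CPM in lst8-1 and at 409, 336 and 265 CPM in yak1lst8-1. Its transcript was thus higher, not lower, in every library labelled as mutant (log2 fold change 1.40 ± 0.16, adjusted p = 9.45e-06), as it was in yak1 against Col0 (1.39, adjusted p = 6.11e-05). Counts per gene do not show whether that transcript is intact, and the directions below rest on the labels.

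The other genes of the TOR complex were slightly lower. RAPTOR1 was at 130, 134 and 136 CPM in lst8-1 and at 88.3, 96.1 and 93.2 CPM in yak1lst8-1, without overlap (-0.53 ± 0.09, adjusted p = 0.000328). TOR was at 112, 104 and 108 CPM against 84.5, 80.9 and 81.3 CPM (-0.39 ± 0.13, adjusted p = 0.0235). The call of TOR was lost without lst8-1 replicate 1 (adjusted p = 0.0716), yak1lst8-1 replicate 2 (0.0644) or yak1lst8-1 replicate 3 (0.0638), and in the fit of the 12 libraries of 4 genotypes (0.0545).

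The yak1 mutation went with a broad change where LST8-1 was low. Of 20619 genes tested, 6804 were called (33 %), of which 3386 were higher in yak1lst8-1 (16.4 % of those tested) and 3418 lower (16.6 %). The groups did not overlap in 4611 genes with higher values (22.4 %) and 4897 with lower values (23.7 %). Most changes were small, since 1308 genes (6.34 %) were called with a change of at least 2-fold, 839 of them higher (4.07 %) and 469 lower (2.27 %). The median over all tested genes was -0.02. Every list below is read against these shares.

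Several of the largest falls were in genes that stood far above Col0 in lst8-1. HIS1-3, a linker histone variant known from drought stress, was at 81.3, 77.6 and 69.9 CPM in lst8-1 and at 5.36, 5.01 and 4.14 CPM in yak1lst8-1. All yak1lst8-1 libraries lay near the Col0 mean of 3.55 CPM, and the fall was 3.97 ± 0.17 on the log2 scale (adjusted p = 5.32e-11). ERD5, the proline dehydrogenase that starts proline breakdown, was at 564, 536 and 503 CPM against 140, 106 and 92.4 CPM, with a Col0 mean of 79.0 CPM (-2.24 ± 0.13, adjusted p = 2.17e-09). SIP2, an alpha-galactosidase that acts on raffinose, was at 559, 536 and 497 CPM against 154, 116 and 108 CPM, with a Col0 mean of 116 CPM (-2.08 ± 0.11, adjusted p = 4.42e-10). In each of these genes the lst8-1 libraries were all high and the yak1lst8-1 libraries all low. The retroelement transcript SADHU3-1 was at 9.44, 16.9 and 8.19 CPM in lst8-1 and rested on 1, 4 and 1 counts in yak1lst8-1. Its fall was 6.23 ± 0.52 on the log2 scale, and 7.32 without yak1lst8-1 replicate 2. XTH24, a xyloglucan endotransglucosylase of the cell wall, was at 281, 259 and 301 CPM against 121, 106 and 95.1 CPM, with a Col0 mean of 111 CPM (-1.38 ± 0.11, adjusted p = 8.02e-08).

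Other large falls were in genes that were not so far from Col0 in lst8-1. DR4, a gene named for its repression by drought, was at 498, 643 and 713 CPM in lst8-1 and 119, 156 and 142 CPM in yak1lst8-1, below all Col0 libraries at 235, 259 and 382 CPM (-2.15 ± 0.20, adjusted p = 1.68e-06). KCS8, a 3-ketoacyl-CoA synthase of fatty acid elongation, was at 183, 194 and 160 CPM against 49.7, 50.3 and 42.9 CPM, with Col0 libraries at 152, 138 and 146 CPM (-1.91 ± 0.15, adjusted p = 1.48e-07). ABF1, a transcription factor of the abscisic acid response, was at 102, 93.0 and 99.8 CPM against 44.6, 41.4 and 38.0 CPM (-1.25 ± 0.07, adjusted p = 1.92e-09). In these genes the yak1 single mutant was low as well, at a mean of 44.0 CPM for ABF1 against 83.6 CPM in Col0. DAA1, GSTF4 and MLP165 also belonged to the 12 largest falls, by 2.19, 2.12 and 2.101 on the log2 scale.

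Several rises were in genes that were low in lst8-1. ESM1, which favours isothiocyanates among the products of glucosinolate breakdown, was at 3.50, 4.26 and 5.38 CPM in lst8-1 and at 62.8, 59.3 and 64.1 CPM in yak1lst8-1. The latter lay at the Col0 mean of 64.3 CPM, and the rise was 3.84 ± 0.18 (adjusted p = 5.45e-10). TGG2, a myrosinase that cleaves glucosinolates, was at 10.4, 10.5 and 9.12 CPM against 70.0, 72.9 and 74.2 CPM, with a Col0 mean of 103 CPM (2.85 ± 0.24, adjusted p = 6.97e-07). COR413IM1, a cold-regulated protein of the inner chloroplast envelope, was at 1.47, 2.65 and 2.81 CPM against 14.4, 24.5 and 22.8 CPM. Its yak1lst8-1 libraries stayed below all Col0 libraries, which were at 55.8 to 78.3 CPM (3.15 ± 0.27, adjusted p = 9.21e-07).

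**Figure D1:**
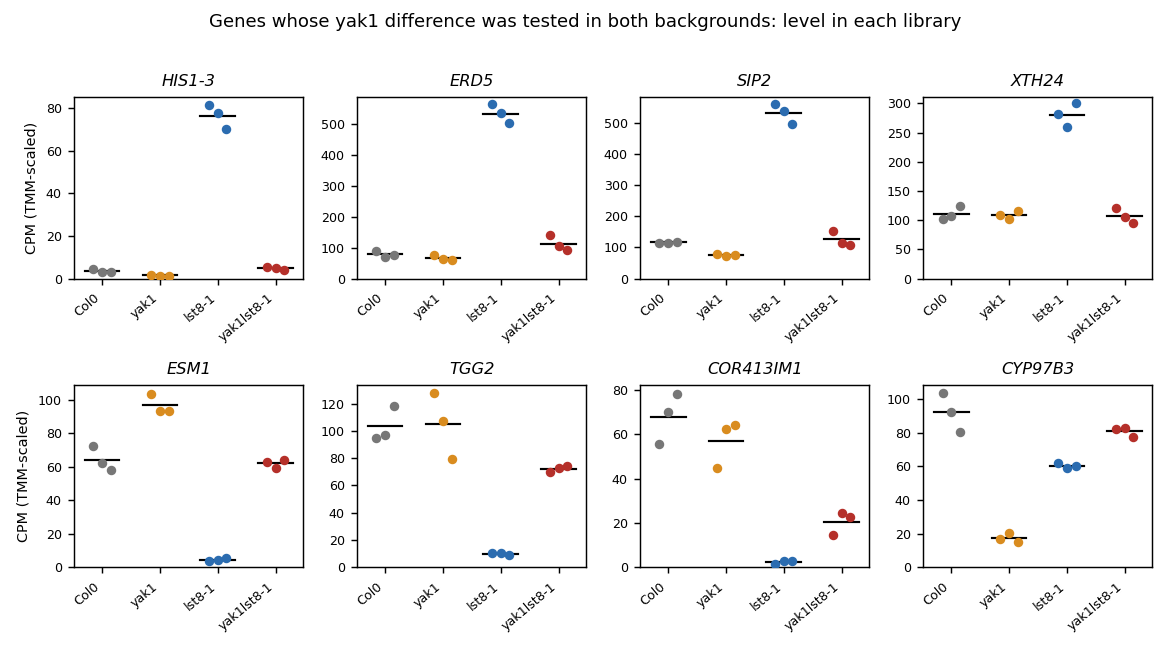
Level in CPM (TMM-scaled) of HIS1-3, ERD5, SIP2, XTH24, ESM1, TGG2, COR413IM1 and CYP97B3 in Col0, yak1, lst8-1 and yak1lst8-1, with 1 point per library and a line at the mean of 3. HIS1-3 at 69.9 to 81.3 CPM and ESM1 at 3.50 to 5.38 CPM set lst8-1 apart, while the yak1lst8-1 points of both lie beside those of Col0.

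Clock genes of the evening were lower and some of the morning were higher. The clock of Arabidopsis runs on morning-expressed MYB-like factors, LHY, CCA1 and the RVE proteins, and on evening-expressed factors such as TOC1 and LUX that act against them. LHY was at 7.91, 11.9 and 10.3 CPM in lst8-1 and at 86.3, 104 and 111 CPM in yak1lst8-1 (3.32 ± 0.17, adjusted p = 1.14e-09). CCA1, its close relative, was at 33.7, 44.7 and 57.9 CPM against 109, 133 and 141 CPM (1.49 ± 0.22, adjusted p = 0.000137). RVE8, an activator of evening genes, was at 9.32, 11.6 and 14.3 CPM against 36.1, 39.0 and 38.9 CPM (1.70 ± 0.14, adjusted p = 2.13e-07). The groups did not overlap in any of these genes, and 7 of 14 morning genes rose while 2 fell.

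Of 13 evening genes, 12 fell and none rose, with a median of -0.97. Between 11 and 12 fell when each library was left out in turn. FKF1, a blue-light receptor that targets proteins for breakdown, was at 83.3, 75.0 and 62.8 CPM against 30.5, 25.6 and 22.0 CPM (-1.50 ± 0.11, adjusted p = 2.98e-08). LUX, a DNA-binding member of the evening complex, was at 46.5, 47.2 and 40.2 CPM against 21.7, 24.1 and 22.8 CPM (-0.97 ± 0.08, adjusted p = 1.21e-07). COR27, a regulator of clock genes at night and in the cold, was at 22.4, 15.03 and 10.06 CPM against 2.74, 2.503 and 1.71 CPM (-2.77 ± 0.35, adjusted p = 4.27e-05). The yak1lst8-1 libraries were low in all 3 genes, without overlap. TOC1 fell by 1.11 ± 0.12, PRR5, a repressor of the morning genes, by 1.38 ± 0.15, and GI, a partner of FKF1, by 0.85 ± 0.08. The same direction was seen with LST8-1 intact: FKF1 was at a mean of 80.4 CPM in Col0 and 41.7 CPM in yak1, and LHY at 8.77 and 54.3 CPM. Since no hour of harvest is given, a shift in the phase of the clock and a lasting change of level cannot be told apart.

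The evening element AAAATATCT, a motif bound by LHY, CCA1 and RVE8, was searched on both strands from 250 bases before to 50 bases after each start in TAIR10.1. It was found for 7 of 13 evening genes (53.8 %), against 2.61 % of 32822 promoters of the same length, and in the bases before the start for 6 (46.2 %), against 2.22 % of all. Evening genes are known for this motif, so the match describes the list and says nothing of binding in these plants. The stretches of 80 bases that hold it are shown for 5 genes that fell, since they are the genes on which the clock result turns. They lie at chr1:25508418-25508497 (plus strand, FKF1), chr3:17182954-17183033 (plus strand, LUX), chr5:24674777-24674856 (plus strand, TOC1), chr5:8358689-8358768 (minus strand, PRR5) and chr5:17199911-17199990 (minus strand, COR27). Capitals mark the element in either orientation, and COR27 holds it at 2 places.
FKF1: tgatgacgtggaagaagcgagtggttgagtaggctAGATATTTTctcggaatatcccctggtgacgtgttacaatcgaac
LUX: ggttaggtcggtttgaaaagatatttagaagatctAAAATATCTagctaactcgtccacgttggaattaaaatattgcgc
TOC1: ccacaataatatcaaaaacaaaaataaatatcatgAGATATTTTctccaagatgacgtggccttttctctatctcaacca
PRR5: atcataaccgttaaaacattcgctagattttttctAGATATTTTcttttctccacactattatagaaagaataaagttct
COR27: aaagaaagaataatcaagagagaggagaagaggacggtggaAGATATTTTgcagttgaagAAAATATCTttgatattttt

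**Figure D2:**
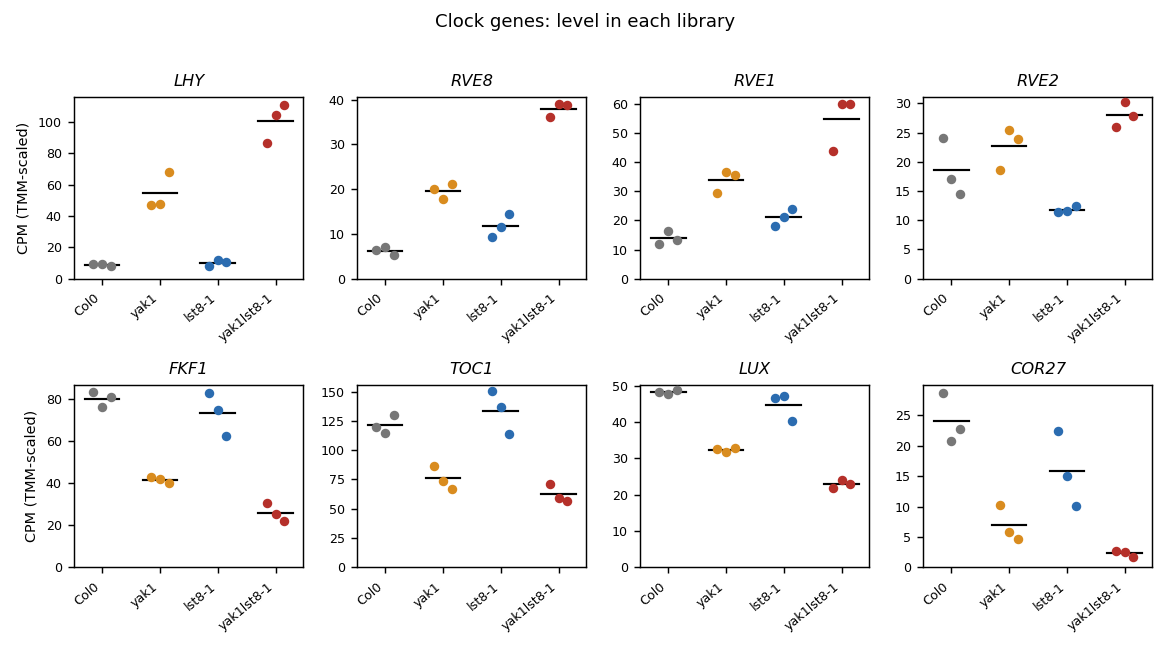
Level in CPM (TMM-scaled) of LHY, RVE8, RVE1 and RVE2 of the morning and FKF1, TOC1, LUX and COR27 of the evening in Col0, yak1, lst8-1 and yak1lst8-1, with 1 point per library and a line at the mean. LHY lies at 86.3 to 111 CPM in yak1lst8-1 and at 7.91 to 11.9 CPM in lst8-1, and the evening genes show the opposite order.

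Genes that plants raise under iron deficiency were higher in yak1lst8-1. Arabidopsis roots take up iron by reducing it with FRO2 and importing it with IRT1, under FIT and its bHLH partners, and they release coumarins that mobilise iron. BHLH38 was at 1.17, 1.38 and 1.64 CPM in lst8-1 and at 8.80, 8.66 and 6.50 CPM in yak1lst8-1 (2.52 ± 0.22, adjusted p = 2.97e-07). BHLH101 was at 0.613, 1.21 and 1.09 CPM against 8.39, 9.53 and 7.50 CPM (3.11 ± 0.32, adjusted p = 1.47e-06). FIT itself was at 5.46, 6.16 and 10.5 CPM against 18.5, 25.5 and 32.6 CPM (1.81 ± 0.28, adjusted p = 0.000229). The yak1lst8-1 libraries were above all lst8-1 libraries in each of these genes, and 15 of 19 regulators rose while 1, BHLH115, fell by 0.24 ± 0.07. Its call was lost without lst8-1 replicate 2 or yak1lst8-1 replicate 1, which left 0 regulators lower.

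Uptake genes followed in most cases. FRO2 was at 3.00, 5.64 and 14.1 CPM in lst8-1 and 33.6, 44.5 and 54.1 CPM in yak1lst8-1 (2.59 ± 0.43, adjusted p = 0.000479), and its Col0 mean was 39.4 CPM. IRT1 was at 6.56, 11.3 and 24.6 CPM against 52.5, 64.9 and 83.8 CPM, with a Col0 mean of 58.2 CPM (2.27 ± 0.38, adjusted p = 0.000571). In lst8-1 and in yak1lst8-1 alike, both genes were lowest in replicate 1 and highest in replicate 3, and no library of one group reached the other. Without lst8-1 replicate 3 the changes were 3.33 for FRO2 and 2.90 for IRT1. CYP82C4, which makes the coumarin sideretin, was at 0.184, 0.173 and 0.780 CPM against 9.50, 10.8 and 8.07 CPM (4.73 ± 0.53, adjusted p = 7.03e-06), and without lst8-1 replicate 3 its change was 5.66. ZIF1, a vacuolar transporter of the metal chelator nicotianamine, was at 16.2, 15.9 and 15.7 CPM against 43.4, 47.3 and 35.5 CPM (1.40 ± 0.15, adjusted p = 4.58e-06). Of 22 genes of uptake, coumarins and transport 14 rose and 2 fell. One of the latter, IRT2, an intracellular relative of IRT1, was at 34.3, 42.3 and 64.0 CPM against 17.7, 13.8 and 14.7 CPM (-1.59 ± 0.32, adjusted p = 0.00165). IRT1 and IRT2 are similar neighbours, and reads with an equally good second alignment had been removed. The iron storage list was split, with 2 of 7 genes higher and 2 lower. The ferritins FER3 and FER4, which store iron, fell by 0.83 ± 0.19 and 0.47 ± 0.10 on the log2 scale. VTL2 and VTL5 of that list rose by 1.23 ± 0.20 and 0.93 ± 0.11. The ferritin FER1 was not called (0.10 ± 0.11, adjusted p = 0.531).

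Genes of salicylic acid and pipecolic acid defence were higher. The spread within yak1lst8-1 was wide for some, such as PBS3, and small for FMO1 and ALD1. PBS3, which makes the direct precursor of salicylic acid, was at 0.859, 0.633 and 0.312 CPM in lst8-1 and at 28.9, 14.9 and 5.92 CPM in yak1lst8-1 (4.74 ± 0.70, adjusted p = 0.000187). FMO1, which makes N-hydroxypipecolic acid, the signal of systemic resistance, was at 5.89, 5.97 and 5.28 CPM in yak1lst8-1 and rested on 2, 1 and 1 counts in lst8-1 (5.92 ± 0.71, adjusted p = 1.51e-05). ALD1, which acts a step earlier, had 1, 0 and 2 counts in lst8-1 and 34, 27 and 37 in yak1lst8-1 (adjusted p = 5.35e-06). These 3 genes did not overlap between the groups, and 13 of 18 genes of synthesis and signalling rose while none fell.

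The response genes that were called showed the same direction. PR1, BGL2 and PR5 of that list were not called (adjusted p = 0.215, 0.175 and 0.521). In BGL2 and PR5 yak1lst8-1 replicate 3, at 0.0714 and 2.14 CPM, lay below every lst8-1 library. WAK1, a wall-associated receptor kinase, was at 1.35, 0.921 and 0.780 CPM in lst8-1 and at 67.7, 35.4 and 8.07 CPM in yak1lst8-1 (5.17 ± 1.00, adjusted p = 0.00169), and its change was 4.36 without yak1lst8-1 replicate 1. ACD6, an ankyrin protein that promotes salicylic acid signalling, was at 1.84, 1.09 and 1.01 CPM against 61.8, 33.5 and 9.21 CPM (4.71 ± 1.01, adjusted p = 0.0033). WRKY70, a transcription factor of that response, was at 3.86, 5.30 and 4.91 CPM against 65.8, 39.4 and 18.7 CPM (3.15 ± 0.53, adjusted p = 0.000601). LURP1, a defence gene induced by oomycetes, had 13, 1 and 0 counts in lst8-1 and 946, 304 and 89 in yak1lst8-1. Its change of 6.63 ± 1.32 became 9.53 without lst8-1 replicate 1 and 5.81 without yak1lst8-1 replicate 1. Without that last library the changes of PBS3, ACD6, AIG1, PUB54, CYP82C2 and LHT7 fell from 4.74, 4.71, 4.94, 5.53, 4.61 and 4.37 to 4.03, 3.97, 4.09, 4.76, 3.77 and 3.59, and that of AIG1 was 5.55 without lst8-1 replicate 1.

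Of 13 response genes tested 9 rose and none fell, and leaving out each library in turn gave 8 to 10. All 9 were highest in yak1lst8-1 replicate 1 and lowest in replicate 3, and all 9 had the same highest and lowest replicate in yak1. In lst8-1 replicate 1 was highest in 7 and replicate 3 lowest in 7 of the 9, so the order was not confined to the yak1 genotypes. Some of these lst8-1 levels rest on few counts, such as 8, 7 and 2 for PCC1. In Col0 replicate 1 was highest in 4 and replicate 3 lowest in 2, which does not show that order. The lowest yak1lst8-1 library still exceeded every lst8-1 library in each of the 9 genes. The letters TTGACC, a form of the W-box bound by WRKY factors, were in 0 of 14 promoters of the response list and 0 of 18 of the synthesis list, against 13.7 % of all. A search for TTGACT, chosen after seeing this, found 4 in each list (28.6 % and 22.2 %, against 21.6 % of all). The core TTGAC, also chosen then, was in 7 and 10 (50 % and 55.6 %, against 50 %).

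MRD1, a gene named for its response in a methionine over-accumulating mutant, behaved otherwise than the called response genes. It was at 0.307, 0.345 and 0.780 CPM in lst8-1 and at 8.74, 9.63 and 10.8 CPM in yak1lst8-1, with little spread (4.39 ± 0.26, adjusted p = 2.62e-09). Receptor kinases of other families also moved. Of 37 cysteine-rich receptor kinases 14 rose and 4 fell, and CRK22 rose by 1.22 ± 0.12. Of 13 wall-associated kinases 8 rose and none fell, but 5 rose without lst8-1 replicate 1 or replicate 2. WAKL4, a kinase of this family, was at 2.76, 2.59 and 2.26 CPM against 7.23, 7.60 and 10.5 CPM, without overlap (1.72 ± 0.15, adjusted p = 3.77e-07).

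**Figure D3:**
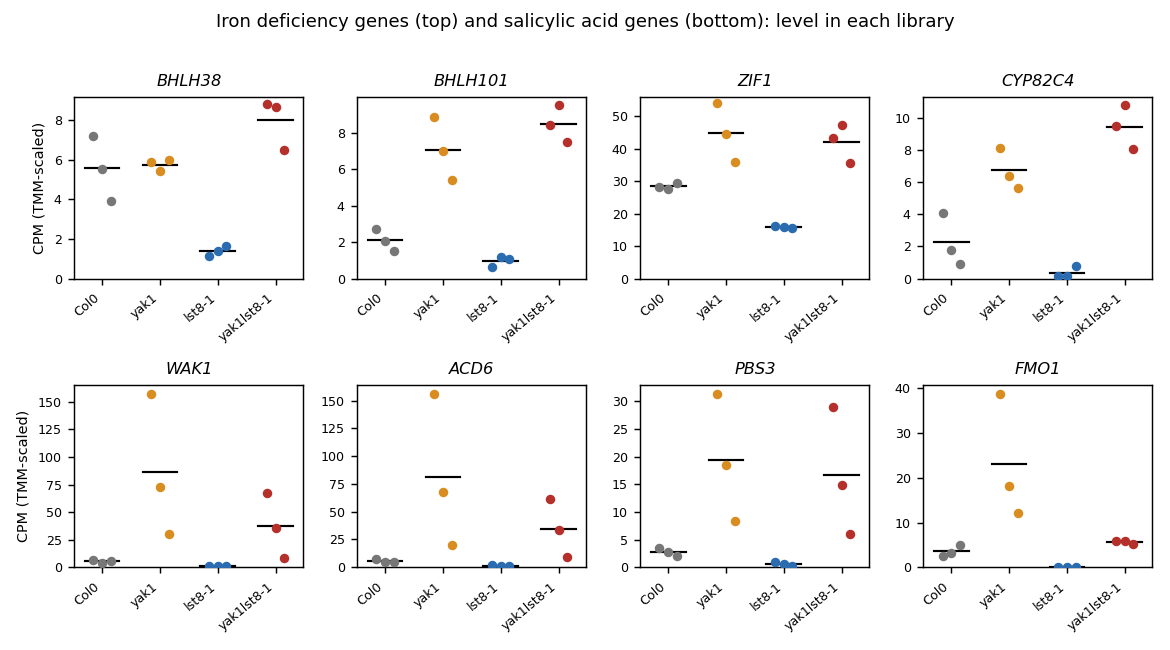
Level in CPM (TMM-scaled) of the iron genes BHLH38, BHLH101, ZIF1 and CYP82C4 in the top panels and the defence genes WAK1, ACD6, PBS3 and FMO1 in the bottom panels, in Col0, yak1, lst8-1 and yak1lst8-1, with 1 point per library and a line at the mean. The yak1lst8-1 points are close together for the iron genes, as for BHLH38 at 6.50 to 8.80 CPM, and far apart for WAK1 at 8.07 to 67.7 CPM.

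Genes for making ribosomes were lower. Ribosome biogenesis, the processing of ribosomal RNA and the assembly of subunits, is a process that TOR is known to promote. PRH75, a nucleolar RNA helicase, was at 310, 269 and 221 CPM in lst8-1 and at 162, 142 and 148 CPM in yak1lst8-1, where the Col0 mean was 191 CPM (-0.82 ± 0.10, adjusted p = 1.58e-05). TOZ, a nucleolar protein of ribosomal RNA processing, was at 37.8, 34.9 and 28.9 CPM against 18.9, 16.7 and 14.1 CPM, with a Col0 mean of 23.7 CPM (-1.03 ± 0.15, adjusted p = 4.61e-05). NUG2, a GTPase of large subunit assembly, was at 84.6, 82.2 and 70.7 CPM against 58.6, 55.1 and 50.8 CPM (-0.53 ± 0.08, adjusted p = 0.000117). The groups did not overlap in these genes, and yak1lst8-1 lay below both lst8-1 and the Col0 mean. Of 30 genes 25 fell and none rose, with a median of -0.56, and 17 to 28 fell when each library was left out in turn. In yak1 against Col0, where 6.11 % of all genes were called lower, 1 of the 30 was called lower and none higher, and the interaction was called for 2 of the 30.

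The telo-box AAACCCTA, known from plant ribosomal and ribosome biogenesis genes, was in 15 of 30 promoters (50 %), against 6.22 % of all promoters of the same length. In the bases before the start alone it was in 6 (20 %), against 4.75 %. Site II, TGGGCC, was in 17 (56.7 %), against 14 %, and in 15 (50 %) before the start, against 12.3 %. The 80 bases with the box before the start are shown for the member with the largest fall, a NOP56-like protein (chr5:9540781-9540860, plus strand, -1.22 ± 0.17), and for NUG2 (chr1:19737325-19737404, plus strand), with the telo-box in capitals. The stretch of NUG2 also holds site II, in small letters.
NOP56-like: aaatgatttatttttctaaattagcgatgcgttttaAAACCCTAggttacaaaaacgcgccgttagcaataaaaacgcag
NUG2: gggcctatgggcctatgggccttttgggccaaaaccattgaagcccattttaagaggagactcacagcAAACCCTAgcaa

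Photosynthesis genes were higher by small amounts. RCA, the activase of the carbon-fixing enzyme Rubisco, was at 4369, 4657 and 5186 CPM in lst8-1 and at 7643, 8731 and 9699 CPM in yak1lst8-1 (0.88 ± 0.14, adjusted p = 0.000124). RBCS2B, a Rubisco small subunit gene, rose by 0.93 ± 0.12, and its counts share similar copies. GLK1, a transcription factor that promotes chloroplast development, was at 32.9, 45.0 and 54.0 CPM against 108, 131 and 144 CPM (1.54 ± 0.17, adjusted p = 4.31e-06). CHLI1, a subunit of magnesium chelatase in chlorophyll synthesis, was at 346, 371 and 346 CPM against 585, 590 and 585 CPM (0.73 ± 0.07, adjusted p = 1.43e-06). All yak1lst8-1 libraries exceeded all lst8-1 libraries in these genes. Of 17 Calvin cycle genes 11 rose, of 12 chlorophyll genes 6 rose, and none of either list fell. Of 45 photosystem and antenna genes 25 rose and 2 fell, but 13 rose without lst8-1 replicate 1 and 16 without yak1lst8-1 replicate 3, and 1 fell without any library but lst8-1 replicate 1. The summed level of 11 leaf and shoot markers, in which these abundant transcripts weigh most, was 14641 to 17283 CPM in lst8-1 and 20560 to 23753 CPM in yak1lst8-1. Of the 10 tested, 3 rose and 2 fell. None fell without lst8-1 replicate 1 or 2 or yak1lst8-1 replicate 2 or 3, and 1 fell without yak1lst8-1 replicate 1. CLV3, a stem cell marker, had 0, 1 and 1 counts in lst8-1 and 0 in each yak1lst8-1 library, too few to compare. The part of shoot proportion in these results was not tested.

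Cell wall genes split by family. Of 21 expansins, which loosen walls, 12 rose and 3 fell. EXPA10 was at 7.85, 9.15 and 11.5 CPM in lst8-1 and 25.1, 27.4 and 32.8 CPM in yak1lst8-1 (1.59 ± 0.18, adjusted p = 6.14e-06). EXPB3 was at 14.2, 19.2 and 15.1 CPM against 34.5, 51.3 and 50.3 CPM, with a Col0 mean of 43.4 CPM (1.48 ± 0.17, adjusted p = 8.8e-06). Both were without overlap. Of 28 xyloglucan enzymes 4 rose and 10 fell, with XTH24 above, but 6 fell without lst8-1 replicate 3 and 5 without yak1lst8-1 replicate 2. GASA6, a gibberellin-induced gene, rose from 28.3, 35.9 and 54.5 CPM to 157, 259 and 261 CPM (2.52 ± 0.36, adjusted p = 0.000178), and GA3OX1, which makes active gibberellin, rose by 1.64 ± 0.18. Of 14 brassinosteroid and gibberellin genes 4 rose and 1 fell, with none lower without lst8-1 replicate 2. GA20OX2 was the gene that fell (-0.84 ± 0.27, adjusted p = 0.0223), and GASA1 and GASA4 were not called.

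Type-A response regulators, which cytokinin induces and which then dampen its signalling, were lower for 7 of 10 tested, with none higher. ARR5 was at 40.6, 37.5 and 48.2 CPM in lst8-1 and 17.7, 19.0 and 17.8 CPM in yak1lst8-1 (-1.21 ± 0.17, adjusted p = 4.13e-05), and ARR6 fell by 1.29 ± 0.15. Both were also lower in yak1 than in Col0, by 1.097 and 1.08 on the log2 scale. IAA28, a repressor of auxin response, was at 51.7, 55.6 and 65.1 CPM against 23.9, 23.3 and 29.7 CPM (-1.16 ± 0.11, adjusted p = 8.21e-07). The Aux/IAA list as a whole had 4 genes higher and 6 lower of 22, with a median of -0.01, and 2 were higher without lst8-1 replicate 1 or yak1lst8-1 replicate 2.

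Root hair markers were lower. RSL4, a bHLH factor that promotes the elongation of root hairs, was at 13.7, 17.4 and 22.1 CPM in lst8-1 and 7.40, 5.87 and 6.996 CPM in yak1lst8-1, against a Col0 mean of 4.11 CPM (-1.37 ± 0.18, adjusted p = 1.58e-05). Of 9 such markers tested 5 fell and none rose, and 2 fell without lst8-1 replicate 3 and 3 without yak1lst8-1 replicate 2 or replicate 3. The sum over the 10 markers was 404 to 723 CPM in lst8-1, 321 to 352 CPM in yak1lst8-1 and 129 to 208 CPM in Col0. The sum over 10 other root markers was 3001 to 4262 CPM in lst8-1 and 2655 to 2943 CPM in yak1lst8-1, with 1 marker higher and 3 lower. It was 1 lower without lst8-1 replicate 1 or 2 or yak1lst8-1 replicate 2, and 2 higher without lst8-1 replicate 3 or yak1lst8-1 replicate 1. The glucosidase PYK10 made up 89.4 to 93.5 % of this sum, and the other 9 root markers summed to 202 to 283 CPM in lst8-1 and 202 to 287 CPM in yak1lst8-1. The part of root proportion in the iron results was not tested. Seed and flower markers were near 0, with sums of at most 3.85 CPM in either group.

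Genes of aliphatic glucosinolates, defence compounds made from methionine, rose in 10 of 19 cases and fell in 1, and the counts did not move when each library was left out. MYB29, an activator of this branch, was at 1.41, 1.73 and 1.33 CPM in lst8-1 and 8.74, 12.5 and 11.3 CPM in yak1lst8-1, with a Col0 mean of 8.55 CPM (2.84 ± 0.31, adjusted p = 3.75e-06). CYP83A1, an enzyme of the core pathway, was at 37.3, 39.8 and 33.0 CPM against 66.8, 87.6 and 81.3 CPM, with a Col0 mean of 98.7 CPM (1.09 ± 0.15, adjusted p = 5.71e-05). Neither gene overlapped between the groups. MAM3, which extends methionine chains, went the other way, at 111, 125 and 97.2 CPM against 38.8, 43.0 and 52.6 CPM (-1.31 ± 0.11, adjusted p = 1.82e-07). Of 11 indolic glucosinolate genes 2 rose and 1 fell, with 1 higher without lst8-1 replicate 2, lst8-1 replicate 3, yak1lst8-1 replicate 2 or yak1lst8-1 replicate 3, and 2 lower without lst8-1 replicate 1.

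Genes of sugar starvation and amino acid breakdown were lower in 9 of 25 cases and higher in 1, with none higher without lst8-1 replicate 2 or 3 or yak1lst8-1 replicate 1 or 2. GDH2, a glutamate dehydrogenase subunit, was at 338, 331 and 352 CPM in lst8-1 and 179, 134 and 116 CPM in yak1lst8-1, with a Col0 mean of 100.2 CPM (-1.25 ± 0.16, adjusted p = 3.49e-05). DYL1, a dormancy-associated gene, was at 241, 213 and 233 CPM against 77.9, 104 and 89.4 CPM, with a Col0 mean of 289 CPM (-1.34 ± 0.16, adjusted p = 1.04e-05). Both were without overlap, and yak1lst8-1 came closer to Col0 in GDH2 and moved away from it in DYL1. PRODH2, the other proline dehydrogenase, fell by 1.03 ± 0.23. Of 8 proline genes 4 fell and 1, P5CS1, rose (0.75 ± 0.20, adjusted p = 0.0112). With each library left out 2 to 4 fell and 0 to 2 rose. MIPS1, which starts inositol synthesis, was at 22.4, 29.4 and 28.9 CPM against 106, 145 and 186 CPM (2.43 ± 0.25, adjusted p = 7.37e-06). Its list of 14 inositol and raffinose genes was split, with 5 higher and 5 lower. With each library left out 3 to 4 were higher and 3 to 5 lower. Of 28 autophagy genes 15 fell and 1 rose, with 9 lower without yak1lst8-1 replicate 1 and none higher without lst8-1 replicate 1 or 2, and ATG3, an enzyme that attaches lipid to ATG8, fell by 0.45 ± 0.06. Of 15 genes of sulfur starvation 7 rose and 1 fell, and LSU1 rose by 1.01 ± 0.17. Of 19 nitrogen genes 8 rose and 1 fell, among them GS2, the chloroplast glutamine synthetase, at 1284, 1314 and 1375 CPM against 2055, 2144 and 2149.8 CPM (0.68 ± 0.08, adjusted p = 4.31e-06).

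Few genes of cell division and few cell cycle inhibitors were called. Of 49 cell division genes 6 fell and 1 rose, with 10 lower without lst8-1 replicate 3 and 0 higher without lst8-1 replicate 1 or yak1lst8-1 replicate 3. Of 9 D-type cyclins 3 fell and none rose, and 3 to 4 fell when each library was left out in turn. Among them CYCD2;1 fell by 0.71 ± 0.13. Of 19 inhibitors of the SIAMESE-related and KRP families, which restrain the cell cycle, 2 fell and none rose. Their counts were 1 lower without lst8-1 replicate 3, yak1lst8-1 replicate 1 or yak1lst8-1 replicate 2, 2 higher without yak1lst8-1 replicate 1 and 1 higher without lst8-1 replicate 3. Of 61 WRKY genes 8 rose and 7 fell, with WRKY54 and WRKY70 of the salicylic acid response among those that rose, and 4 to 10 were higher as each library was left out, with 5 without lst8-1 replicate 1 or yak1lst8-1 replicate 1 and 4 without lst8-1 replicate 2. Other lists had members on both sides. Of 18 starch genes 6 rose and 6 fell, with 3 higher without lst8-1 replicate 1. Of 43 glutathione S-transferases 11 rose and 10 fell, and of 28 genes of abscisic acid and drought 5 rose and 7 fell, with 8 higher without lst8-1 replicate 3. Of 12 flowering genes 3 rose and 4 fell, with 2 lower without lst8-1 replicate 1. The flowering repressor FLC was at 3.86, 3.17 and 4.13 CPM against 8.69, 10.7 and 9.85 CPM (1.39 ± 0.16, adjusted p = 4.08e-06), and its Col0 mean was 14.97 CPM.

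**Figure D4:**
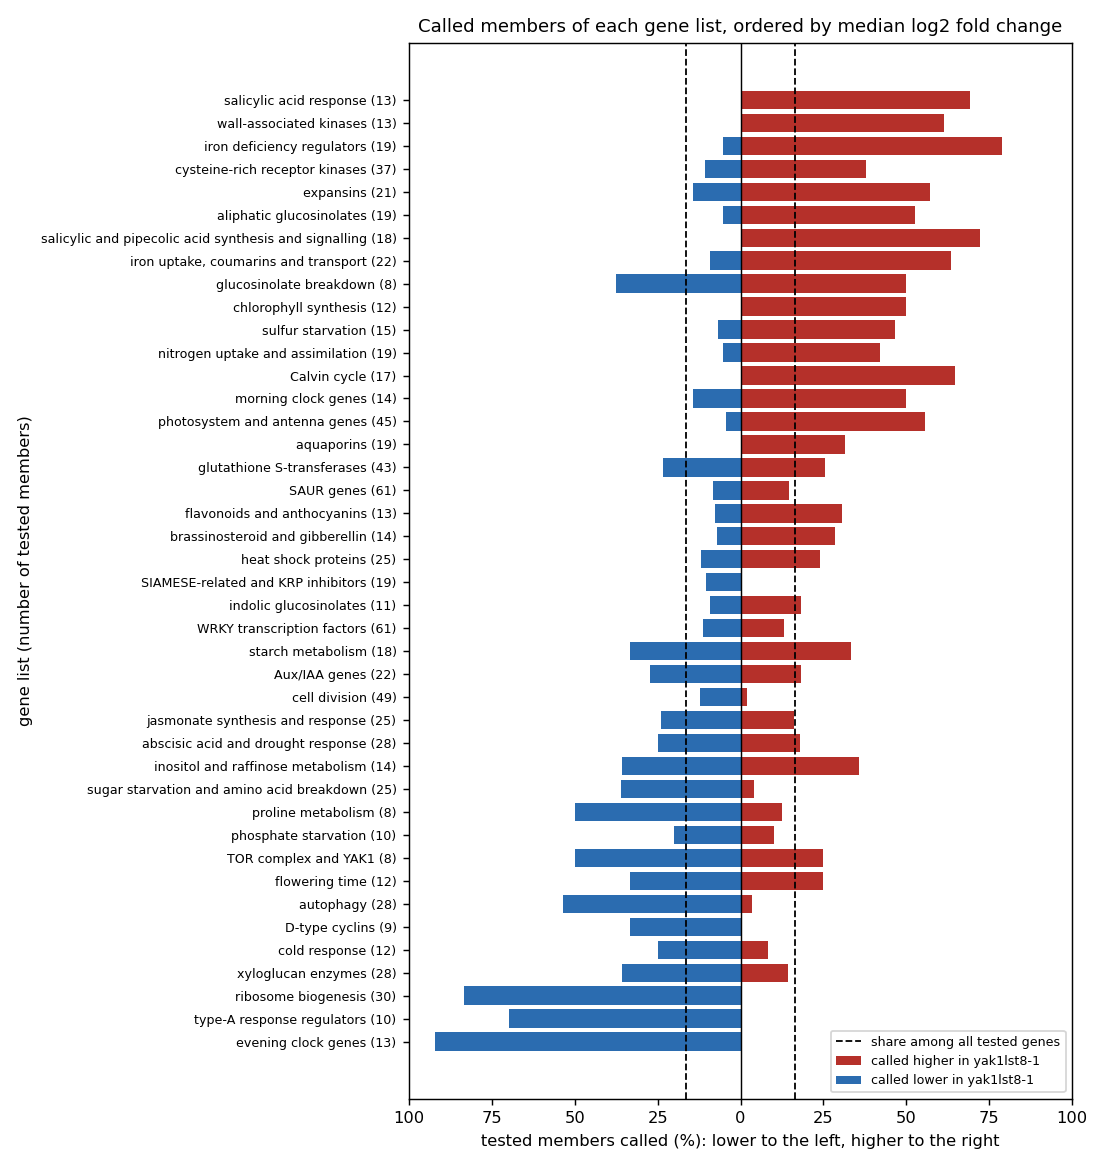
Percent of tested members of each list called higher and lower in yak1lst8-1 than in lst8-1, for lists with at least 8 tested genes, markers left out. The dashed lines mark the shares over all tested genes, 16.4 % higher and 16.6 % lower, and the evening clock and ribosome biogenesis lists reach farthest on the lower side.

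The yak1 effect with LST8-1 low was set beside that with LST8-1 intact, yak1 against Col0, which shares no library with it. The test of yak1 against Col0 called 2446 genes (11.9 %), of which 1186 were higher (5.75 %) and 1260 lower (6.11 %). It called 929 genes when only these 6 libraries were fitted, and 746 were higher without Col0 replicate 2. Of the 3386 genes higher in yak1lst8-1 than in lst8-1, 816 were called higher and 16 lower in yak1 against Col0, and 86.2 % had the same sign. Of the 3418 lower genes, 866 were called lower and 21 higher, and 85.2 % had the same sign. The median change of the higher genes was 0.53 with LST8-1 low and 0.22 with it intact, and that of the lower genes -0.55 and -0.24. The genes were chosen by the former comparison, which by itself makes its medians larger. Across all 20619 genes the changes had a Pearson correlation of 0.61 and a Spearman correlation of 0.54, a description over genes that share libraries.

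The difference of both effects, the interaction, was tested itself. It was called for 714 genes (3.46 %), 435 higher (2.11 %) and 279 lower (1.35 %) where LST8-1 was low. This count depended on single libraries: it was 347 without lst8-1 replicate 2, 350 without yak1lst8-1 replicate 2, 367 without Col0 replicate 2, 381 without yak1lst8-1 replicate 3, 382 without lst8-1 replicate 1, 460 without yak1 replicate 1 and 468 without yak1 replicate 2. It was 338 when the 12 libraries of these 4 genotypes were fitted alone. The count also moved upward, to 839 without yak1lst8-1 replicate 1. Adding a term for replicate number to the model gave 1889, though these numbers were not shown to pair plants. Both tests called 645 genes (3.13 %). They were chosen by the change in lst8-1 as well as by the interaction. Which effect is larger in them, and how often the signs differ, is therefore no result. The sign of the change from Col0 to yak1 was opposite in 167 of the 408 higher and 137 of the 237 lower genes, and 16 and 21 of these were called there.

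ERD5, HIS1-3, ESM1, TGG2, COR413IM1 and XTH24 belonged to the genes whose yak1 effect differed. In ERD5 the change was -2.24 with LST8-1 low and -0.25 with it intact, an interaction of -1.99 ± 0.18 (adjusted p = 6.38e-06). In ESM1 it was 3.84 against 0.59, an interaction of 3.25 ± 0.23 (adjusted p = 7.47e-07), and in XTH24 -1.38 against -0.03 (-1.35 ± 0.15, adjusted p = 9.15e-05). PP2-A6, a phloem protein-like lectin, was at 0.245, 0.230 and 0.390 CPM in lst8-1 and 3.67, 4.04 and 4.35 CPM in yak1lst8-1, with 2.60, 2.62 and 3.15 CPM in Col0 and 5.38, 4.54 and 6.39 CPM in yak1 (2.84 ± 0.32, adjusted p = 0.000104). CYP82F1, a cytochrome P450, was at 83.7, 89.4 and 103 CPM in lst8-1 and fell by 1.19 ± 0.13, while it rose by 0.55 from Col0 to yak1.

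CYP97B3, a cytochrome P450 of the carotene hydroxylase family, had the smallest p of the interaction among the genes named. It was at 104, 92.4 and 80.3 CPM in Col0 and 16.6, 20.6 and 14.9 CPM in yak1, a fall of 2.41 on the log2 scale. In lst8-1 it was at 61.8, 59.0 and 60.0 CPM and in yak1lst8-1 at 82.1, 82.6 and 77.6 CPM, a rise of 0.42 ± 0.10 (adjusted p = 0.00342). The yak1 libraries were the lowest of the 12, and the interaction was 2.83 ± 0.15 (adjusted p = 2.46e-09).

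Counts of members called in the interaction are given beside the 2.11 % of all genes called higher and 1.35 % called lower, and differences between lists were not tested. Among iron deficiency regulators 6 of 19 were called, all higher, and 3 without lst8-1 replicate 1 or 2 and 4 without Col0 replicate 1 or yak1lst8-1 replicate 2, with BHLH38 at a change of 2.52 with LST8-1 low and 0.06 with it intact (interaction adjusted p = 0.00013). Among aliphatic glucosinolate genes 6 of 19 were called, all higher, and 4 to 7 with each library left out. Among 21 expansins 6 were called higher and 1 lower, and 4 to 7 and 0 to 2 with each library left out. Of the 13 response genes of salicylic acid none was called, and WAK1 changed by 5.17 and 4.03 in the respective backgrounds (interaction adjusted p = 0.742). Of the 13 evening clock genes 1 was called, FKF1 (-0.55, adjusted p = 0.0467), and its list had 3 lower without lst8-1 replicate 3, 2 without yak1lst8-1 replicate 1 and none without any other library. Of 30 ribosome biogenesis genes 2 were called, and 0 to 4 with each library left out. A miss of the threshold does not show that the effects were equal, and the SE of the interaction for WAK1 was 1.42.

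**Figure D5:**
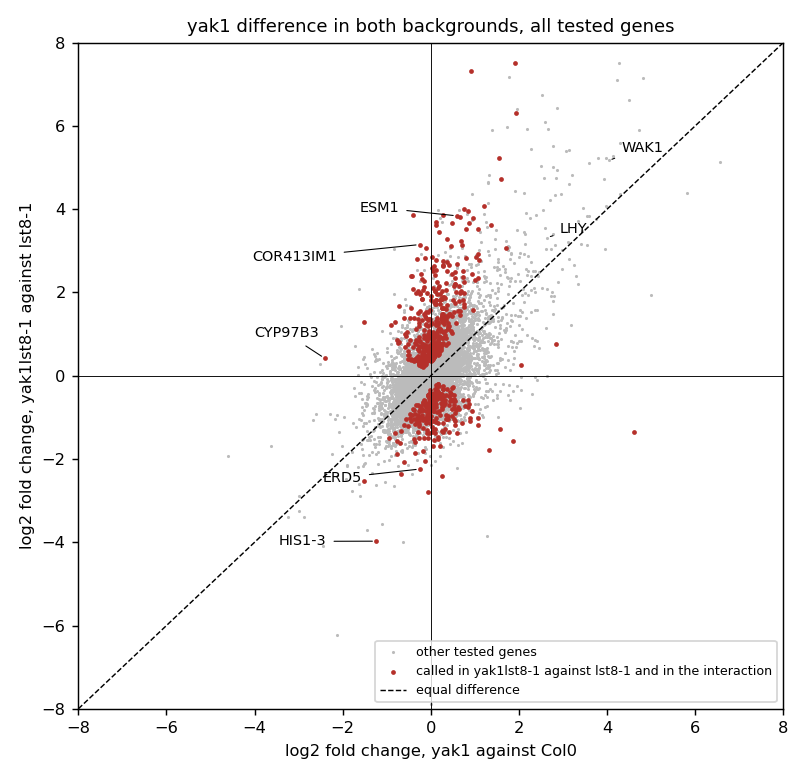
Log2 fold change of yak1lst8-1 against lst8-1 and of yak1 against Col0 for each tested gene, as labelled on the axes, with 2 genes outside the plotted range. Red points are the 645 genes called in yak1lst8-1 against lst8-1 and in the interaction.

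Genes near YAK1 on chromosome 5 were looked at by position. Of the 100 tested genes nearest to it, 44 were called, 21 higher and 23 lower, and 12 changed at least 2-fold. Over 203 windows of 100 tested genes along the genome the count of called genes was 21 to 49 with a median of 32, and 7 windows held at least 44. For changes of at least 2-fold it was 0 to 20 with a median of 6, and 16 windows held at least 12. The windows around YAK1 were not left out of these counts. The window with 49 called genes, 15 of them changed at least 2-fold, was itself on chromosome 5. AT5G35935, an uncharacterized gene at chr5:14083388-14089891, was at 19.2, 19.3 and 16.7 CPM in lst8-1 and 1.92, 1.93 and 1.36 CPM in yak1lst8-1 (-3.40 ± 0.16, adjusted p = 1.27e-10), and likewise low in yak1 (-3.23, adjusted p = 1.36e-09). AT5G35940, its neighbour and a mannose-binding lectin, was at 2.02, 1.78 and 1.95 CPM against 10.3, 9.05 and 11.6 CPM (2.42 ± 0.21, adjusted p = 3.28e-07), and rose by 1.56 in yak1. These neighbours moved in opposite directions in both backgrounds.

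Farther along lie PEN3, a triterpene synthase (chr5:14220634-14226211), and CYP716A2, a cytochrome P450 (chr5:14212174-14213293). PEN3 was at 39.9, 54.5 and 64.5 CPM in lst8-1 and 8.80, 10.3 and 6.42 CPM in yak1lst8-1, while Col0 was at 0.545 to 1.54 CPM (-2.65 ± 0.25, adjusted p = 1.23e-06). CYP716A2 was at 10.3, 20.0 and 26.0 CPM against 2.56, 4.52 and 3.14 CPM (-2.49 ± 0.32, adjusted p = 3.06e-05). The lst8-1 libraries were high in both. AT5G36130, another cytochrome P450 between them and YAK1, fell by 2.62 ± 0.45, scpl1, a carboxypeptidase-like gene, fell by 1.14 ± 0.14, and GSL09, a glucan synthase-like gene, rose by 2.04 ± 0.33. In yak1 against Col0, scpl1 changed by -0.02 and GSL09 by 0.26, and the interaction was called for both. PEN3 changed by -0.83 in that comparison (adjusted p = 0.38), and its interaction was not called (adjusted p = 0.158). Whether sequence carried along with the yak1 allele differs near YAK1 cannot be told apart from an effect of YAK1 on these genes.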

How the data were processed

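The authors selected polyadenylated RNA and made stranded single-end libraries, per the labels' protocols, and used TAIR10, TopHat2 and Bowtie2, whose versions are not given in the sources used here, per the submitters' processing notes. Per the file headers, the authors dropped reads that aligned elsewhere with the same score. What they deposited is a raw count per gene model, for 33602 models. Whether counting used the strand is not given in the sources used here, so overlapping antisense genes are uncertain. TAIR10.1 held 32835 of the gene models and gave symbols for 10654, gene order and promoter sequence. No column of values was left unused, a count of 0.

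Counts of all 18 libraries were fitted in R 4.3.3 with edgeR 4.0.16 (limma 3.58.1): filterByExpr by genotype, TMM, and 1 quasi-likelihood model with genotype as its term and 12 residual degrees of freedom. Tests were two-sided. The common biological coefficient of variation was 10.8 %. For the interaction, the yak1 effect in Col0 was subtracted from that in lst8-1. The script was tested on simulated data. Alternatives were RLE size factors, library totals, DESeq2 1.42.0, no filter on low counts, fewer libraries, the replicate number as a block, and each library left out in turn. Python 3.11.15, pandas 2.3.3 and matplotlib 3.10.9 made summaries and figures.

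The libraries compared, the gene lists and the rule for naming genes were chosen with earlier results of these data known. From lists matched by symbol patterns, 21 genes of another family with a like name were removed. The rule named the TOR complex genes, the 12 genes with the largest change in each direction (called, named by a symbol, without overlap, and averaging 5 CPM or more in the group where they were higher), up to 4 called members of each list with the smallest adjusted p, 8 genes by the interaction, called genes changed at least 2-fold within 20 tested genes of YAK1, 6 genes by p, and all markers. FIT, FRO2, IRT1, IRT2, CCA1, PRR5, BHLH115 and the other letters of the W-box were chosen after their values were seen. In windows near YAK1, 50 tested genes were taken on each side.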

Additional observations from a re-analysis of the deposited data

Results flagged for a closer look

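The yak1 effect differed between the lst8-1 and the Col0 background by the test of the interaction in 714 genes of 20619, and in 12 of the genes named as large changes or neighbours of YAK1. Values are the log2 change from lst8-1 to yak1lst8-1 minus that from Col0 to yak1. The difference was positive for COR413IM1 (3.40), ESM1 (3.25), CYP82C4 (3.14), PP2-A6 (2.84), CYP97B3 (2.83) and GSL09 (1.78). It was negative for HIS1-3 (-2.73), ERD5 (-1.99), CYP82F1 (-1.74), SIP2 (-1.46), XTH24 (-1.35) and scpl1 (-1.11). In CYP97B3 and CYP82F1 the yak1 effects had opposite signs in the backgrounds, 0.42 against -2.41 and -1.19 against 0.55. Groups of 3 libraries were not tested for a single outlying library.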

How the results depend on the processing

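The count of genes called between yak1lst8-1 and lst8-1 stayed within 1.5 times of 6804 under every alternative run, from 5150 to 6368 with each library left out. Library totals in place of TMM gave 2710 higher and 4050 lower and moved the median of all genes to -0.08. The interaction was less stable: 338 genes, 209 higher and 129 lower, with only the 12 libraries of Col0, lst8-1, yak1 and yak1lst8-1, and 347 to 839 with each library left out (208 to 513 higher, 125 to 326 lower). The yak1 effect in Col0 fell to 929 genes, 450 higher and 479 lower, when only its groups were fitted, and gave 746 to 1070 higher genes with each library left out. Near YAK1, 26 of 50 and 76 of 200 nearest genes were called. The telo-box count fell from 15 to 6 without the bases after the start, and the W-box letters rose from 0 to 4 and 7 (response) and to 4 and 10 (synthesis) with TTGACT and TTGAC. The replicate numbers were not shown to pair plants, since deviations of same-numbered lst8-1 and yak1lst8-1 libraries correlated at 0.31, 0.01 and 0.25. Yet 4 of these 6 libraries correlated best with their own number. On principal component 3, replicate 1 was lowest in 6 of 6 genotypes and replicate 3 highest in 5, a hint from the data that numbers mark something shared. A replicate block gave 8473 genes called between yak1lst8-1 and lst8-1, 1889 in the interaction (1038 higher, 851 lower) and 4111 between yak1 and Col0 (2015 higher, 2096 lower). Over the 220 genes named by rule and tested, 2749 values kept call and direction, 96 lost the call, 12 gained it and none changed sign. Where the cause of a change is not given, the cause was not tested. Counts under about 3 per library limit LURP1, FMO1, ALD1, PUB54 and SADHU3-1.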
